A study of Mus musculus with 34 samples.

Results

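DNA methylation was examined at CpG islands of genes that hold back the cell cycle or suppress tumours. The genes were Cdkn2a, Cdkn2b, Cdkn1a, Cdkn1b, Rb1, Rassf1, Apc and Cdh1. These 8 genes were chosen by name from a proposal that had measurements of these arrays in view, namely the values of the pancreatic lines Min6 and aTC beside sorted beta cells and those of ES cell derivatives beside tissue. Those comparisons are therefore given here as a description: counts past a threshold stand beside the same share of all islands, and nothing is read from them. Of 97209 array probes with a position, 96 carried the name of a member, and they formed 12 islands in 7 of the 8 genes, out of 13620 islands scored on every array. No probe carried the name of Cdkn2b.

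Methylated fragments of mouse DNA were pulled down with an antibody against 5-methylcytidine (methylated DNA immunoprecipitation) and hybridised together with the input DNA to 34 CpG island arrays. An island was a run of at least 3 probes with gaps of at most 500 bases, and its island methylation score (IMS) was the mean over its probes of the Z-score of the bound over input log ratio, taken over all probes of the array. The score has no unit and ranks an island against the rest of the same array, so it is not a percentage of methylated molecules. A score below 0 was counted as unmethylated and one above 0.75 as methylated. On average adult tissue, 71% of all islands lay below 0 and 11.8% above 0.75.

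Adult tissue gave 16 arrays, 2 each of colon, pancreas, brain, kidney, liver, lung, muscle and spleen, from mice of both sexes aged 3 months. Embryos gave 5 arrays, 1 for each of 8.5, 9.5, 10.5, 11.5 and 12.5 days post coitum (dpc). The undifferentiated ES cell lines EB5, J1 and TT2 gave 1 array each. Differentiated ES cells gave 5 arrays. They were embryoid bodies from TT2, grown for 2 days in hanging drops and 4 more in suspension without LIF; TT2 cells treated with retinoic acid, at 1 micromolar for 8 days; definitive endoderm on 2 arrays; and mesoderm on 1. Endoderm and mesoderm came from an EB5 derivative with reporters at Gsc and Sox17, after 6 days with 10 ng per ml of Activin A and cell sorting on those reporters. Teratomas from J1 gave 2 arrays, taken 2 weeks after injection under the skin of NOD-SCID mice, and cells of the host may be part of their DNA. Sorted beta cells, Min6 and aTC gave 1 array each. The beta cells were sorted with an antibody against insulin from islets of mice carrying a Pdx1-GFP transgene, aged 2 to 8 months. Min6 is a beta cell line and aTC an alpha cell line. Both were established from tumours of mice carrying the SV40 large T antigen, which itself binds p53 and the Rb protein. The methods name C57Bl/6 as the source of the mouse DNA, and the labels give no strain for any array. Labels and methods differ on 2 points: the retinoic acid cells are TT2 in the labels, as in a figure legend of the study, and J1 in the methods, and the teratomas are J1 in the labels and D3 and C4 in the methods. The labels are used here. Arrays of DNA methylation carry no expression markers, so the labelled cell types could not be checked against any.

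One array stood apart from its label group. Over all islands, the J1 array correlated with the mean of adult tissue at r = 0.95, against 0.814 for EB5 and 0.814 for TT2, and the adult arrays themselves ranged from 0.905 to 0.955 against the mean of the other tissues. Its scanner values correlated at r = 0.113 with its own column in the deposited table of Z-scores, whereas the other 33 arrays had 0.894 or more. For the counts and the islands named in comparisons with the undifferentiated ES cells, the result without J1 is therefore given as well.

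The cell cycle arm of these genes meets at the retinoblastoma protein. Cdkn2a and Cdkn2b encode INK4 inhibitors of the cyclin D dependent kinases Cdk4 and Cdk6, and a separate first exon of Cdkn2a gives p19Arf, which restrains Mdm2 and so stabilises p53. Cdkn1a (p21), a target of p53, and Cdkn1b (p27) are Cip/Kip inhibitors of cyclin dependent kinases. With these kinases inhibited, the product of Rb1 stays bound to E2F factors and blocks entry into S phase. The others act elsewhere: Rassf1 encodes scaffolds of Ras and Hippo signalling, Apc is the scaffold of the complex that marks beta-catenin for destruction, and Cdh1 encodes E-cadherin, which binds beta-catenin at cell junctions. Promoter islands of Cdkn2a, Rassf1, Apc and Cdh1 are well known as sites of methylation in tumours and cultured cells.

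Promoter sequences of the genes with more than 1 island and a strong contrast between islands are shown first, because CpG dinucleotides are what the assay reads. They are the 250 bases upstream of each annotated start from a RefSeq table (GRCm38.p6), in lower case with each CG in capitals. CG reads the same on both strands. The table held 8 promoters of 5 of the 8 genes, and none for Rb1, Apc and Cdh1.
Cdkn2a promoter 1, chr4:89282193-89282442, minus strand: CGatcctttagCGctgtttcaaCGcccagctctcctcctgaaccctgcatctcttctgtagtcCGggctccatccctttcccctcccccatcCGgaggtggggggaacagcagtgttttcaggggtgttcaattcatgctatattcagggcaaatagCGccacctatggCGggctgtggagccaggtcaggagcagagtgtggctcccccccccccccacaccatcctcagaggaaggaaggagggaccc
Cdkn2a promoter 2, chr4:89294620-89294869, minus strand: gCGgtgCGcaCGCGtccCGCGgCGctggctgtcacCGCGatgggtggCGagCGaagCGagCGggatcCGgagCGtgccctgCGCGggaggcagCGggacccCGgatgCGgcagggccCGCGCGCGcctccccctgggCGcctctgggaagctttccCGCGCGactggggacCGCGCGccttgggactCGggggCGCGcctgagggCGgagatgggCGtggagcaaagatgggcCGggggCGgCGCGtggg
Rassf1 promoter 1, chr9:107551305-107551554, plus strand: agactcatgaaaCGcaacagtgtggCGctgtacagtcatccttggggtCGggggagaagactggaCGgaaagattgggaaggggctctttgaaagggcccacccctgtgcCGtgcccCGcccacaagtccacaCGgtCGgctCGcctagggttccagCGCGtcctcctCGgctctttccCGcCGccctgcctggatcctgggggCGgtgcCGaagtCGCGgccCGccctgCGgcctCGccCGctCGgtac
Rassf1 promoter 2, chr9:107554333-107554582, plus strand: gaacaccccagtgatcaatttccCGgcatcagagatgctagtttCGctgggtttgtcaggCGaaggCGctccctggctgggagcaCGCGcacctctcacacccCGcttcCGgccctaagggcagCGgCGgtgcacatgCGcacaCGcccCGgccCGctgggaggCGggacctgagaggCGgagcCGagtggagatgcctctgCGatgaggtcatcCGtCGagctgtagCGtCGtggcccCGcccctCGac
Cdkn1a promoter 1, chr17:29090729-29090978, plus strand: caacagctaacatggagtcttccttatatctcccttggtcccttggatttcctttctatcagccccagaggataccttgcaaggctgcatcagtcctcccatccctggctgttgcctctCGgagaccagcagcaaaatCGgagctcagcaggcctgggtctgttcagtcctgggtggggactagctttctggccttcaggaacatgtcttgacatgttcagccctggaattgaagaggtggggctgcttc
Cdkn1a promoter 2, chr17:29093519-29093768, plus strand: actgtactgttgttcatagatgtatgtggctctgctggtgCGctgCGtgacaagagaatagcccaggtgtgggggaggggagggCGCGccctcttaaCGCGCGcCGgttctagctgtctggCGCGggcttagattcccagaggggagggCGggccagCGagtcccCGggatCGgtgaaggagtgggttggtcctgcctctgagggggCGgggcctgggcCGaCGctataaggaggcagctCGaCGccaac
The 2 starts of Cdkn2a differed most. Promoter 1 held 7 CG and promoter 2 held 40, and 98.7% of the 32851 promoters in the table had fewer than 40, with a median of 6. The Rassf1 promoters were alike, with 23 and 24 CG. Cdkn1a promoter 1 held 2 and promoter 2 held 19. Of those not shown, the promoter of Cdkn1b held 28 CG and that of Cdkn2b 12. The islands of the array are placed on another build (mm9, as named in 6 of the 34 array files and given here for the probes that all arrays share), and the files carry no exon or promoter annotation. Whether an island covers a promoter, and which one, is therefore not given. The Cdkn2a promoters start 12.4 kb apart, and the Cdkn2a islands lie 17.3 kb apart from edge to edge and 18.1 kb between centres. Taken across the 2 builds, these distances do not allow each Cdkn2a island to lie at 1 of these 2 promoters. The sequences are those of the gene's promoters, and whether any of them lies within an island was not determined.

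In adult tissue most member islands had a mean score below 0, as did 71% of all islands. Apc and Cdh1 were below 0 by little. The INK4 gene Cdkn2a had an island of 3 probes at chr4:88922488-88922864 (island 1) and one of 8 shared probes at chr4:88940152-88941483 (island 2). Island 1 scored -1.47, -0.928 and -0.172 (lowest, median and highest of 16 adult arrays), and all 16 were below 0. Island 2 scored -0.52, -0.14 and 0.146, with 13 of 16 below 0. Neither island of Cdkn2a was methylated in any adult tissue.

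Among the Cip/Kip inhibitors, Cdkn1a had an unmethylated and a methylated island within one gene. Its island 1 (chr17:29230554-29232718, 17 shared probes) scored -0.41, -0.214 and -0.0355 in adult tissue. Its island 2 (chr17:29235288-29235583, 4 probes) scored 2.6, 2.88 and 3.41. The latter was above 0.75 on all 34 arrays, from 1.7 in aTC to 3.41 in muscle, and its median over the arrays stood at percentile 97.6 of all islands. Cdkn1b had 3 islands on chromosome 6. Islands 1 (134869881 to 134871327) and 2 (134876852 to 134877619) were below 0 on all 16 adult arrays, with medians of -0.394 and -0.396. Island 3 (134878201 to 134879017) was near 0, at -0.295, 0.0195 and 0.875, and only pancreas replicate 1 passed 0.75.

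Rb1, the target of this arm, had one island (chr14:73724871-73726249, 7 shared probes) at -0.604, -0.269 and 0.0936, with 15 of 16 adult arrays below 0. Rassf1 again had a pair of unlike islands. Island 1 (chr9:107453757-107454354, 5 probes) scored -0.599, 0.51 and 1.28, and island 2 (chr9:107456377-107457537, 7 shared probes) -0.563, -0.347 and 0.121. Island 1 of Rassf1 lay on both sides of both thresholds in adult tissue, with 3 arrays below 0 and 4 above 0.75, as did Cdkn1b island 3, with 5 and 1. Apc (chr18:34380434-34381264, 6 shared probes) scored -0.321, -0.0704 and 0.325. Cdh1 (chr8:109127131-109127943, 6 probes) scored -0.332, -0.0647 and 0.164. Apc and Cdh1 thus sat around 0 with no adult array above 0.75.

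**Figure D1:**
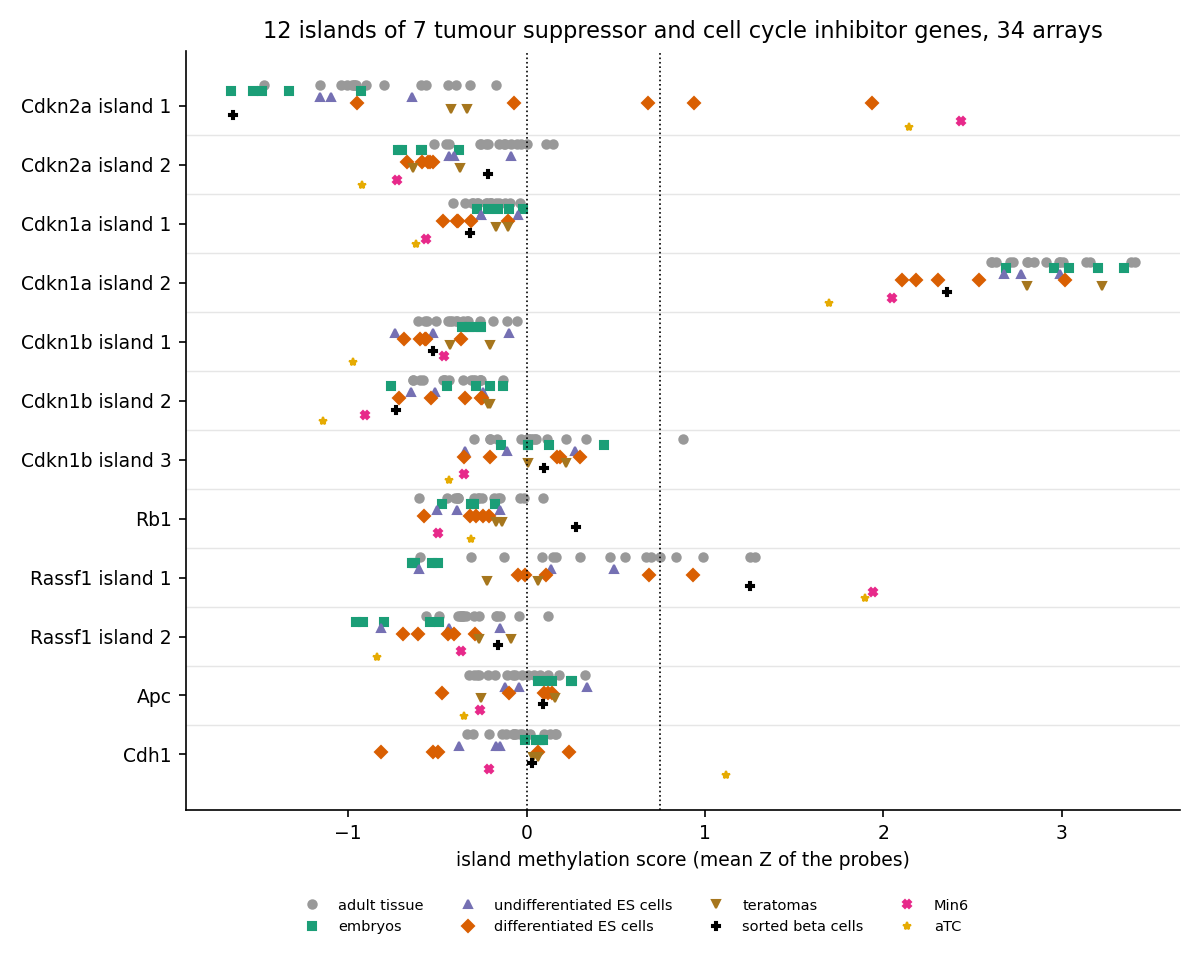
Island methylation score (mean Z, x axis) of the 12 member islands (y axis) on each of 34 arrays, 1 point per array, coloured by group, with dotted lines at 0 and 0.75. Cdkn1a island 2 lies above 0.75 on all 34 arrays, and Cdkn2a island 1 has the widest range, from -1.66 to 2.44.

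The question whether a member's level depends on the adult tissue was open to a test, since the choice of the genes did not name differences between tissues. A limma F-test over the 8 tissues, adjusted over all 13620 islands, called 0 of 12 member islands, and 0 of them had an unadjusted p under 0.05. It called 11 islands in all (0.0808%), with 538 at an unadjusted p under 0.05. The count of all islands moved with single arrays. It was 2 without colon replicate 1; 6 without colon replicate 2, pancreas replicate 2 or muscle replicate 1; and 7 without pancreas replicate 1, kidney replicate 1, liver replicate 1 or muscle replicate 2. With the array grid as a term it was 322, and 0 of the 12 member islands passed under any of the alternatives run. The spread within a tissue was large at Rassf1 island 1. Lung gave 0.987 and -0.599 there, spleen 1.28 and -0.125, and brain 0.147 and 1.25. Its SD within a tissue was 0.672, against 0.0696 at Cdkn1a island 1, the smallest.

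The pancreatic lines were compared with sorted beta cells to set long-cultured cells beside the cell type from the animal. With 1 array each there are no replicates. The yardstick used is the SD of a difference between arrays of 1 tissue (the SD within adult tissues times the square root of 2), and a difference over 0.75 was counted. Cdkn2a island 1 separated the lines from everything else in the pancreas. It scored -1.65 in sorted beta cells, 2.44 in Min6 and 2.14 in aTC, while the pancreas arrays gave -0.563 and -0.978. The differences from beta cells were 4.08 and 3.79, against an SD of a difference of 0.519. All 3 probes took part: Min6 gave Z-scores of 2.19, 2.55 and 2.57 along the island, aTC 1.87, 2.36 and 2.2, and beta cells -1.9, -1.2 and -1.84.

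The other island of Cdkn2a was below 0 in beta cells and in both lines, and lower in the lines. Island 2 scored -0.216 in beta cells, -0.726 in Min6 and -0.923 in aTC, and the adult minimum was -0.52. Its differences from beta cells, -0.51 and -0.707, were beyond the SD of a difference of 0.222 but not past 0.75. Of all islands, 64.8% were lower than in beta cells in Min6 and 65.6% in aTC. Rassf1 island 1 was already above 0.75 in beta cells, at 1.25, and reached 1.94 in Min6 and 1.9 in aTC. Its differences, 0.689 and 0.644, were smaller than the SD of a difference of 0.951 there. Against the pancreas arrays its differences were 1.51 and 1.47, larger than that SD. Cdh1 parted the lines: 0.0308 in beta cells, -0.213 in Min6 and 1.12 in aTC. All 6 of its probes were higher in aTC than in beta cells, by the largest step at the sixth, which read -0.952 in beta cells and 1.82 in aTC. Rb1 was 0.276 in beta cells, above the highest adult array, and -0.496 in Min6 and -0.311 in aTC.

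**Figure D2:**
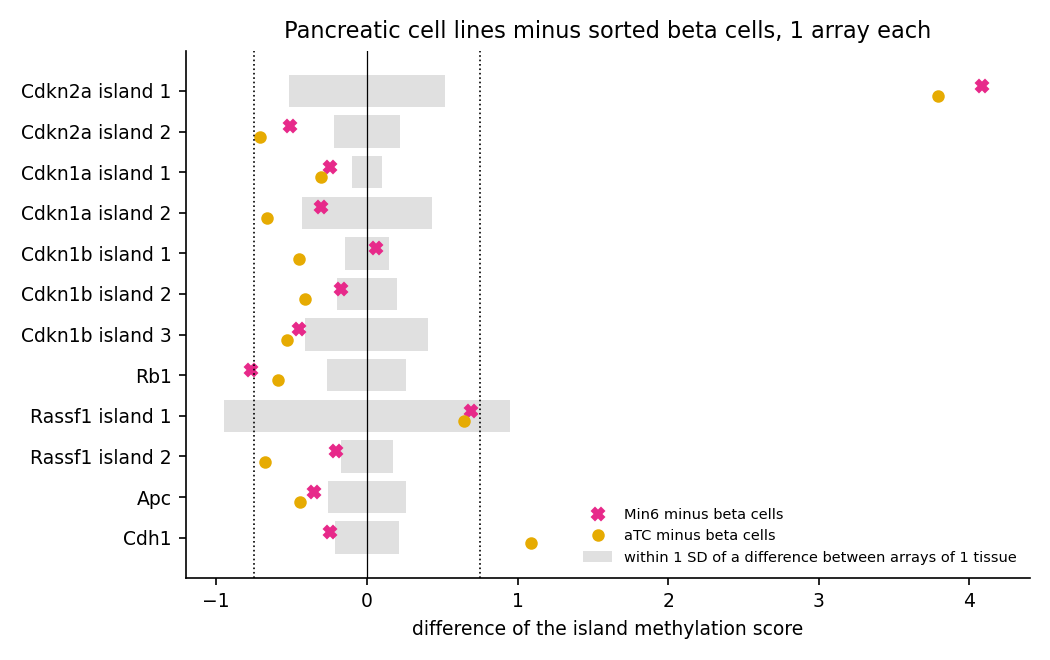
Difference of the island methylation score (x axis) between Min6 or aTC and sorted beta cells for the 12 member islands (y axis), 1 array each. Grey bars span 1 SD of a difference between arrays of 1 adult tissue to either side of 0, and dotted lines mark 0.75 in both directions. Cdkn2a island 1 lies at 4.08 and 3.79, and Cdh1 in aTC at 1.09.

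In counts, Min6 was higher than beta cells by over 0.75 at 1 of 12 member islands (Cdkn2a island 1), with 10.5% of all islands past that mark, and lower at 1 of 12 (Rb1, at -0.772), with 6.96% of all islands. aTC was higher at 2 of 12 (Cdkn2a island 1 and Cdh1), with 13.8% of all islands, and lower at 0 of 12, with 9.07%. Nothing is read from these shares, because the genes were chosen with this comparison in view. The median difference over the 12 islands was -0.246 in Min6, where the median of all islands was -0.153, and -0.445 in aTC, where it was -0.212. In Min6 9 of 12 member islands were lower than in beta cells, beside 64.8% of all islands, and in aTC 9 of 12, beside 65.6%. Rb1 in Min6 lost its place past 0.75 with the pancreas arrays as reference (-0.167), with normexp background correction (-0.0841) and, by little, with gaps of at most 250 bases (-0.749). The pancreas reference also put islands past 0.75 that were not past it against beta cells. Rassf1 island 1 was higher, at 1.51 in Min6 and 1.47 in aTC. Cdkn1a island 2 was lower, at -1.02 and -1.38, as was Cdkn1b island 3, at -0.792 and -0.876. Cdkn1b island 2 passed as lower in aTC, at -0.766. Cdkn2a island 1 was at 2.91 or more in both lines under each alternative that held it. Against the range of the adult arrays, 11 of 12 member islands of aTC were outside, 7 of Min6 and 4 of beta cells. The same shares over all islands were 54.7% for aTC, 42.1% for Min6 and 21.7% for beta cells.

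ES cell derivatives were compared with tissue to see where cells differentiated in vitro depart from adult levels. Cdkn2a island 1 again varied most. It scored -0.952 in embryoid bodies, 1.94 after retinoic acid, 0.938 and -0.0721 in endoderm and 0.683 in mesoderm. The parent lines were at -0.643 (TT2) and -1.16 (EB5). The group thus ran from a level within adult tissue, in embryoid bodies, to one near the pancreatic lines, after retinoic acid, and 4 of its 5 arrays were above the highest adult array. The 2 endoderm arrays differed from each other by more than the SD of a difference within a tissue. Ordered over all 34 arrays, Min6, aTC and the retinoic acid cells came first, with gaps between neighbours smaller than 0.519. Endoderm replicate 1 and mesoderm came next, again with a gap under 0.519 between them. Endoderm replicate 2 followed and bordered on lung replicate 2, at -0.172, within the same spread.

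**Figure D3:**
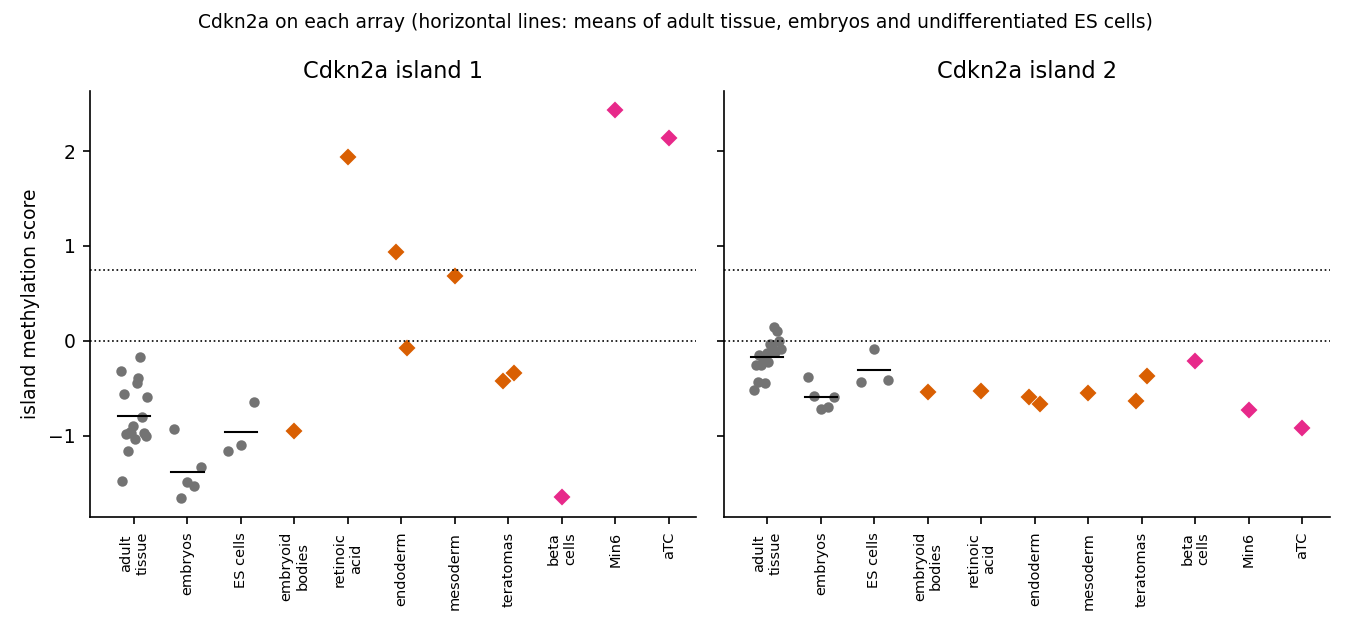
Island methylation score (y axis) of both Cdkn2a islands on each array, by group (x axis), with dotted lines at 0 and 0.75. Grey points are adult tissue, embryos and undifferentiated ES cells, with a line at the group mean; orange are ES cell derivatives and pink are sorted beta cells and the 2 lines. Island 1 reaches 1.94 after retinoic acid and 2.44 in Min6, whereas island 2 stays at or below 0.146 on all arrays.

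Cdkn2a island 2, below 0 on 13 of 16 adult arrays, was lower still in the derivatives, with little scatter. It scored -0.54 in embryoid bodies, -0.524 after retinoic acid, -0.588 and -0.669 in endoderm and -0.554 in mesoderm, all below the lowest adult array. Cdkn1a island 2 stayed methylated but lower, at 2.54, 3.02, 2.11, 2.18 and 2.31 in the same order, and 4 of 5 arrays were under the adult minimum of 2.6. Cdh1 differed between the derivatives labelled EB5 and TT2. These also differ in protocol, so line and protocol cannot be told apart. The EB5 derivatives were under the adult range, with endoderm at -0.814 and -0.498 and mesoderm at -0.524. The undifferentiated EB5 line was also under it, at -0.381 beside an adult minimum of -0.332. The TT2 line was within it, at -0.147. The TT2 derivatives were not under the adult range, with embryoid bodies at 0.0638 and retinoic acid cells at 0.238, the latter above the highest adult array. Outside the adult range in either direction were 4 of 12 member islands in embryoid bodies and 5 of 12 on each other derivative array. Of all islands, 27.1% were outside it in embryoid bodies, 22.8% after retinoic acid, 36.2% and 27.7% in endoderm and 28.9% in mesoderm.

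By a limma fit that held adult tissue, embryos and both kinds of ES cell as its 4 groups, 3 of 12 member islands were past the threshold between differentiated ES cells and adult tissue, beside 23.2% of all islands. One was higher, Cdkn2a island 1 by 1.3, with 14.4% of all islands higher, and 2 were lower, Cdkn2a island 2 at -0.407 and Cdkn1a island 2 at -0.491, with 8.74% of all islands lower. The count is no test of these genes, since they were chosen with this comparison in view, and nothing is read from it. With normexp background correction 0 of the 3 were past the threshold. Cdkn2a island 1 was then at 0.653 and Cdkn2a island 2 at -0.108, both nearer 0. Cdkn1a island 2 was then at -0.59, further from 0. With the deposited table, which lacks Cdkn2a island 1, Cdkn2a island 2 (-0.319) was not past the threshold. Cdh1, at -0.253, was not past it, and was without the embryoid bodies (-0.346), without the retinoic acid array (-0.389), with well measured probes alone (-0.327) and with the grid as a term (-0.308). Cdkn1b island 1 was past it with the deposited table (-0.259) and with the island median (-0.362). On the slides that an ES cell derivative shared with adult tissue, Cdkn2a island 1 was higher by 0.491 in endoderm replicate 2 than in pancreas replicate 1, and by 0.00561 in embryoid bodies than in brain replicate 2.

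The teratomas are also derived from ES cells. Cdkn2a island 1 scored -0.423 and -0.336 there, both within the adult range, but its probes differed. Probes 2 and 3 read 0.36 and 0.274 in teratoma 1 and 0.183 and 0.136 in teratoma 2, above the highest adult values of -0.379 and -0.305. Probe 1, the weak one, read -1.9 and -1.33 and brought the mean into the range. Over the 12 member islands the 2 arrays gave 1 value outside that range, Cdkn2a island 2 in teratoma 1 at -0.64. Of all islands, 14% and 9% were outside it on these arrays. Rassf1 island 1 scored -0.22 and 0.0656 and Cdh1 0.0644 and 0.0383.

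Embryos were compared with adult tissue, a comparison that the choice of the genes did not name. Its adult arrays are the ones set beside the ES cell derivatives when the genes were chosen, so it is not independent of that choice. This bears most on Cdkn2a island 2, which was also lower in differentiated ES cells. Both islands of Rassf1 and island 2 of Cdkn2a were lower in embryos, and no member island passed as higher. Rassf1 island 1 scored -0.497, -0.531, -0.642, -0.628 and -0.631 from 8.5 to 12.5 dpc. The embryos lay within 0.145 of one another, where adult tissue spanned 1.88, and all 5 were below 15 of the 16 adult arrays. Rassf1 island 2 scored -0.955, -0.919, -0.798, -0.494 and -0.542. Cdkn2a island 2 scored -0.378, -0.586, -0.718, -0.699 and -0.59. In both, part of the embryos overlapped the adult range. Of the 12 member islands, 2, 3, 4, 4 and 2 were outside the adult range from 8.5 to 12.5 dpc. The shares of all islands outside it were 24%, 16.4%, 14.3%, 16.6% and 10.3% in the same order.

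The differences were -1.03 (95% confidence interval -1.51 to -0.558, adjusted p 0.0043) at Rassf1 island 1, -0.457 (-0.664 to -0.25, 0.00376) at Rassf1 island 2 and -0.426 (-0.609 to -0.243, 0.00236) at Cdkn2a island 2, with 5 embryo and 16 adult arrays. These are 3 of 12 member islands. Of all 13620 islands 8.62% were called, 3.47% lower and 5.15% higher, and 0 of 12 members passed as higher. Cdkn2a island 1 was -0.926, -1.66, -1.48, -1.53 and -1.33 in the embryos, and 4 of the 5 were below 15 of the 16 adult arrays. Its difference of -0.59 (-1.11 to -0.0657) did not pass, at an adjusted p of 0.161. The difference at Apc, 0.232 (0.0256 to 0.439), did not pass either (adjusted p 0.161). The remaining 7 member islands had differences from -0.0548 to 0.126. A p-value here measures the spread between these arrays alone.

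Embryo and adult arrays shared 0 slides, 0 scan days and 0 versions of the scanner software, so stage and batch cannot be told apart. With the software version as a term, which leaves 1 embryo array to carry the comparison, 7 islands of all were called and none of the 3. The differences were then -0.175 at Cdkn2a island 2 (adjusted p 0.888), -1.25 at Rassf1 island 1 (0.583) and -0.49 at Rassf1 island 2 (0.609), so only that of Cdkn2a island 2 was smaller. With the scan day as a block Rassf1 island 1 was at -0.976 with an adjusted p of 0.0535, and 463 islands of all were called. With normexp background correction Cdkn2a island 2 (-0.216, adjusted p 0.373) and Rassf1 island 2 (-0.105, 0.652) did not pass and Rassf1 island 1 did (0.0415). With the deposited table Cdkn2a island 2 was at 0.0533. Over all alternatives the adjusted p ran from 0.00124 to 0.888 at Cdkn2a island 2 (15 of 18 under 0.05), from 0.00107 to 0.583 at Rassf1 island 1 (16 of 18) and from 0.00312 to 0.652 at Rassf1 island 2 (14 of 16). Among arrays of the smaller grid alone, 5 embryo and 6 adult, the differences were -0.883 at Rassf1 island 1, -0.495 at Rassf1 island 2 and -0.559 at Cdkn2a island 2. The count of all islands fell from 1174 to 689 without the 9.5 dpc embryo, and each of the 3 passed with any 1 embryo left out. The J1 array enters the spread that the groups share in this fit, and no embryo result without J1 is given.

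**Figure D4:**
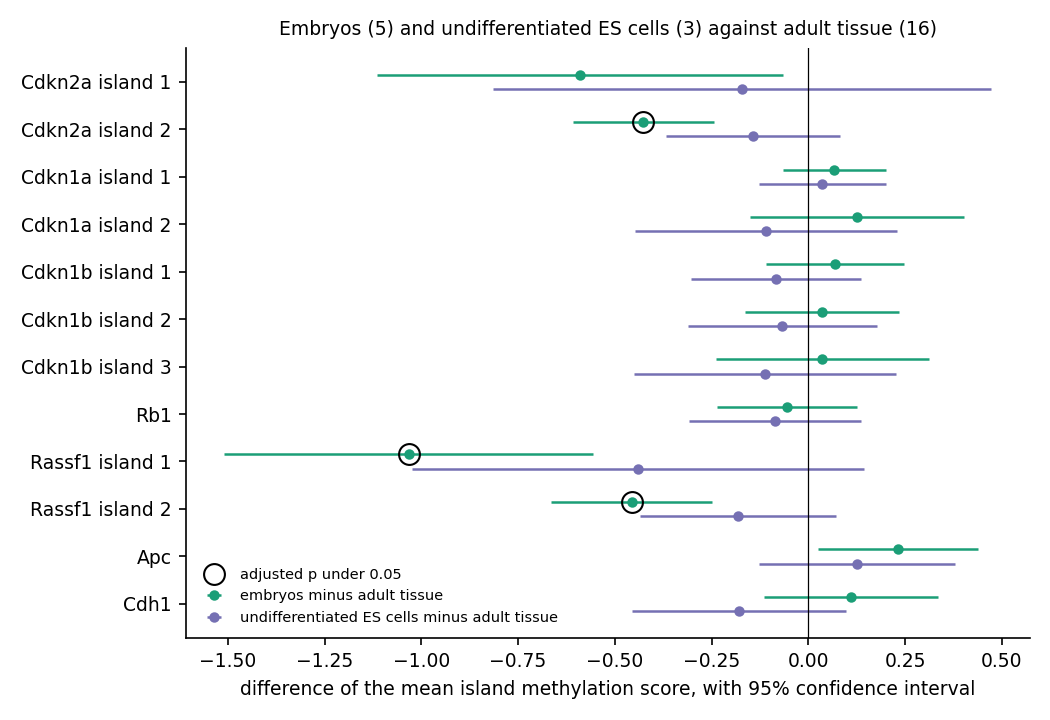
Difference of the mean island methylation score (x axis, with 95% confidence interval) of embryos (5 arrays) and undifferentiated ES cells (3 arrays) from adult tissue (16 arrays) for the 12 member islands (y axis). Circles mark an adjusted p under 0.05: Rassf1 island 1 at -1.03, Rassf1 island 2 at -0.457 and Cdkn2a island 2 at -0.426, all in embryos. Both comparisons share the adult arrays.

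Probe by probe, the embryo mean of Rassf1 island 1 was below the adult mean at all 5 probes, by the widest margin at the third, where it was -1.17 against 0.243. The fifth probe was the weakest measurement, with input well above background on 13 of 34 arrays, and the adult arrays ranged there from -1.76 to 2.3. In Min6 and aTC the same 5 probes were high throughout, from 1.64 to 2.19. At Cdkn2a island 2 the embryo mean was below the adult mean at 7 of 8 probes. The exception was the fourth, at 0.173 against 0.0535. The first probe of that island, at 0.424 in adult tissue, was -0.514 in embryos, -0.673 in differentiated ES cells, -0.604 in Min6 and -0.783 in aTC.

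**Figure D5:**
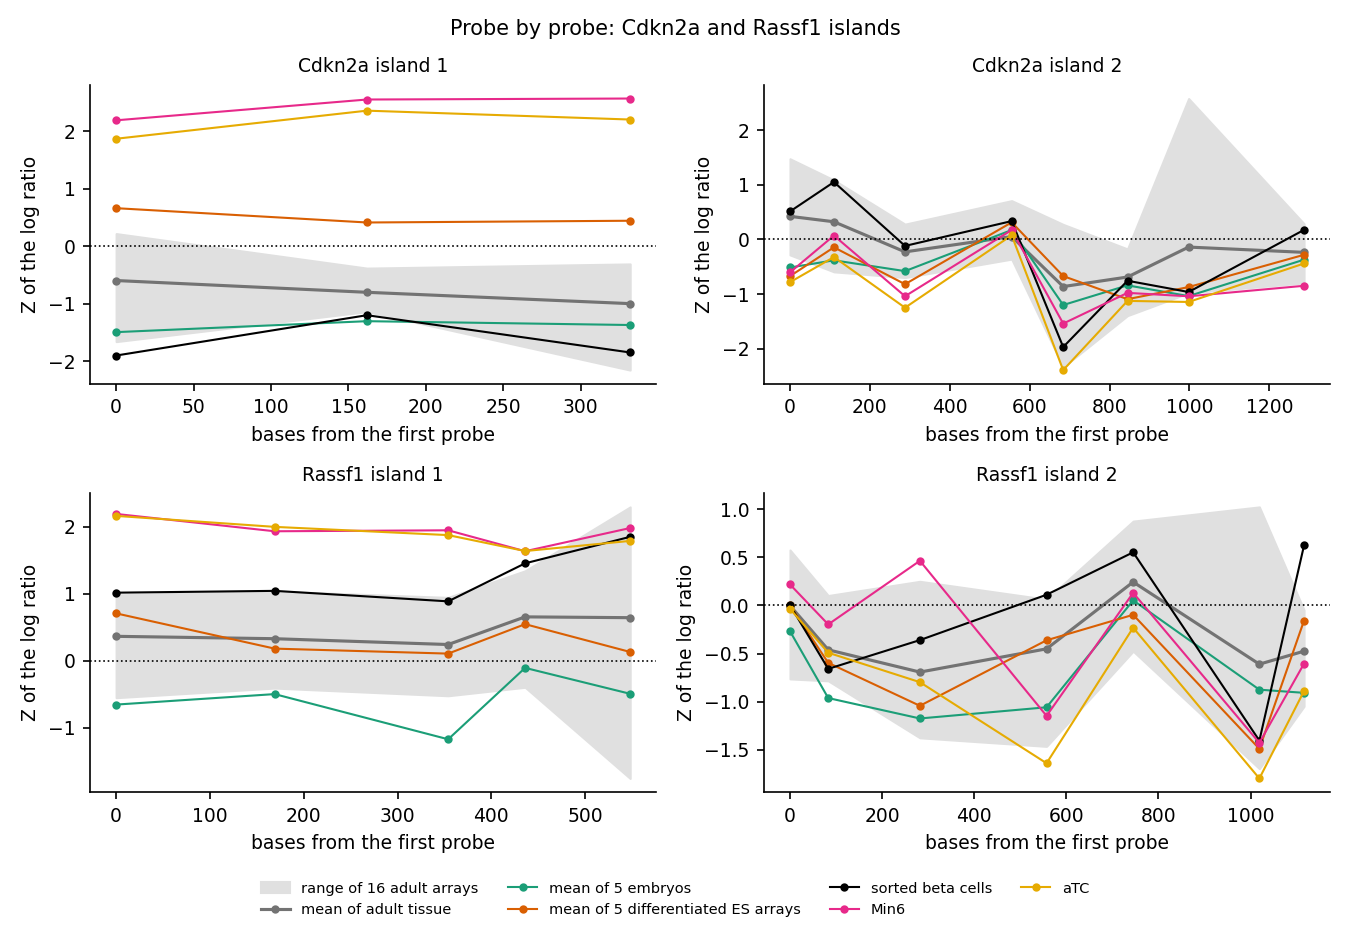
Z-score of the log ratio (y axis) of each probe of the Cdkn2a and Rassf1 islands by its distance in bases from the first probe (x axis). Grey shading is the range of 16 adult arrays and the grey line their mean; coloured lines are the means of 5 embryos and 5 differentiated ES cell arrays, and the single arrays of sorted beta cells, Min6 and aTC. At Cdkn2a island 1 both lines are above 1.8 at all 3 probes, and the highest adult value is 0.221.

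Undifferentiated ES cells were compared with adult tissue to see whether the levels of the derivatives were already present in the lines. Cdkn2a island 1 scored -1.16 in EB5, -1.1 in J1 and -0.643 in TT2, all inside the adult range. Rassf1 island 1 scored -0.604 in EB5, 0.492 in J1 and 0.136 in TT2. The fit called 0 of 12 member islands, and 0 had an unadjusted p under 0.05. Of all islands 2.3% were called, 0.984% higher and 1.31% lower, which is 313 islands with 2278 at an unadjusted p under 0.05. The largest member difference was -0.44 (95% confidence interval -1.02 to 0.144) at Rassf1 island 1. Without J1 that difference was -0.681 (adjusted p 0.229), the count of all islands was 1151 and still 0 of 12 members passed. Without EB5 the difference at Rassf1 island 1 was -0.133. Over all alternatives the adjusted p of Rassf1 island 1 ran from 0.0953 to 0.902. The count of all islands was 0 without EB5 and 0 without TT2. The comparison shares its adult arrays with the embryos and with the choice of the genes.

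Between differentiated and undifferentiated ES cells 1 of 12 member islands passed, and 5.49% of all islands (748), 3.54% higher and 1.95% lower. It was Cdkn2a island 1, higher by 1.47 (95% confidence interval 0.727 to 2.22, adjusted p 0.0157), with the 5 differentiated arrays at the values given above. The comparison uses the same differentiated arrays that were in view when the genes were chosen, so it gives no independent support. One of the 5, the embryoid bodies, lay within the range of the undifferentiated lines. Without J1 the difference was 1.41 and the adjusted p 0.0601. The adjusted p was 0.0679 without EB5 (difference 1.38) and 0.55 with normexp background correction (difference 0.613). With log2 ratios centred on the array median the adjusted p was 0.0621 (difference 1.74). Over all alternatives it ran from 0.00128 to 0.55, with 14 of 18 under 0.05. The balance over all islands also depended on the scaling: 482 were higher and 266 lower, but 213 and 12 with median and MAD, 212 and 16 with the log2 ratio, and 577 and 766 with the deposited table, whose J1 column is in doubt. The count of all islands was 1370 without the retinoic acid array, 443 without EB5, 484 without endoderm replicate 2 and 490 without J1.

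The input channel was examined on its own, because a lost or gained locus, as cell lines can carry, would change it. The measure was the mean log2 input signal of the island minus the median of all probes of the array. At Cdkn2a island 1 it was 0.01 in Min6, -0.03 in aTC and 0.12 in beta cells, inside the adult range of -1.18 to 0.24, and 0 of the 18 arrays that are not adult tissue fell outside that range. At Cdkn2a island 2 it was above the adult range on 7 of the 18 arrays, the most of any member island, among them beta cells at -0.28, Min6 at -0.38 and aTC at -0.25, where the highest adult array was at -0.39. Embryos of 9.5, 10.5 and 11.5 dpc were also above it. Of all islands, 2.42% had as many arrays above or more. At Cdh1 it was -0.11 in aTC, within an adult range of -0.52 to 0.32. Over the 12 islands and these 18 arrays, 42 of 216 values (19.4%) were outside, 33 above and 9 below. Over all islands 17.8% were outside, 9.15% above and 8.68% below. The limit of Cdkn2a island 1 is its small number of probes. Its first probe had input well above background on 24 of 34 arrays and bound signal on 11, and the deposited table, which lists fewer probes, does not hold the island.

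Other genes of the same pathways were read from lists of genes, chosen, like the members, with earlier results of these data known. The comparisons here are the ones that the choice of the members did not name. Of all islands, 8.62% were called in embryos and 2.3% in undifferentiated ES cells. Of 6 islands of other Cdk inhibitors and pocket proteins, 0 passed in embryos and 1 in undifferentiated ES cells. It was Cdkn1c (p57, an imprinted Cip/Kip inhibitor), at 1.02 on average in ES cells against 2.22 in adult tissue (adjusted p 0.0276), which passed under 8 of 16 alternatives (adjusted p up to 0.43) and not without EB5 or without TT2. Its difference moved from -1.2 to -1.84 without J1, to -0.793 without EB5 and to -0.97 without TT2. The median difference of that list in embryos was 0.1, beside 0.0368 for all islands. Cyclins, Cdks and E2F factors had 0 of 21 islands called in embryos and 0 of 21 in undifferentiated ES cells. The p53 arm had 3 of 11 called in embryos, 2 higher and 1 lower, and 0 of 11 in undifferentiated ES cells. Mdm4, a partner of Mdm2 in restraining p53, was higher in embryos at 0.237 against -0.306 (adjusted p 0.00257). Gadd45b, a stress response gene, was lower at -0.822 against -0.0413 (adjusted p 0.0242) and passed under 7 of 15 alternatives (adjusted p up to 0.924). It did not pass without the 8.5, the 10.5 or the 11.5 dpc embryo, nor with the slide or scan day as a block or the software version or grid as a term, and with normexp background correction its direction turned, to 0.0524.

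The pathways of Rassf1, Apc and Cdh1 are read beside the same shares of all islands, 8.62% in embryos and 2.3% in undifferentiated ES cells, at which lists of this size hold few calls or none. The Rassf family and Hippo kinases had 0 of 10 islands called in embryos and 0 of 10 in undifferentiated ES cells. The beta-catenin destruction complex had 0 of 9 in both, with a median difference in embryos of 0.12. Cadherins and catenins had 0 of 22 in both, with a median of -0.0403 in embryos. Of 28 islands of other tumour suppressors, 1 was higher and 2 lower in embryos. Hic1, a transcriptional repressor and p53 target, was lower by far, at -0.352 against 1.18 over 30 probes (difference -1.53, adjusted p 0.000404). It passed under 16 of 18 alternatives, with adjusted p from 0.000356 to 0.459, and not with normexp background correction or with the software version as a term. Mdm4 also did not pass under those 2 alone. Its difference of 0.543 was 0.242 with normexp background correction and 1.18 with the software version as a term. An island of Runx3, a transcription factor, was lower at 0.725 against 1.41 (adjusted p 0.0435) and passed under 5 of 18 alternatives (adjusted p up to 0.775), not without the 8.5, 9.5, 10.5 or 11.5 dpc embryo. In undifferentiated ES cells 1 of these 28 was higher, another island of Runx3 at 0.764 against 0.12 (adjusted p 0.0383). It passed under 7 of 16 alternatives (adjusted p up to 0.496) and not without EB5 or without TT2. Its difference moved from 0.644 to 0.921 without J1, to 0.441 without EB5 and to 0.568 without TT2.

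Without J1 the counts of these lists in undifferentiated ES cells changed at 3 of 7. Cyclins, Cdks and E2F factors then had 1 of 21 called, lower, and cadherins and catenins 1 of 22, lower. Other tumour suppressors had 1 higher and 1 lower among the 27 of their 28 islands that could be recounted. The other 4 lists kept their counts, while the count of all islands rose from 313 to 1151.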

How the data were processed

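Per the file headers, Agilent Feature Extraction (versions 9.5.3.1, 10.5.1.1, 10.7.3.1 and 10.9.1.1) gave the intensity of each spot and its background, and the authors' processing subtracted background and normalised the dyes linearly. The deposited scanner files hold the log10 ratio of bound (Cy5) over input (Cy3) DNA, which was the starting point here. The deposited table holds a score per probe (a Z-score, taken by the authors according to probe melting temperature) and served as an alternative. Control spots and outlier spots were left out, as were 442 probes without a position. Z-scores were taken over each array, and 13620 islands of at least 3 probes were scored. Input signal stood at 3.07 to 7.34 times background (array medians). It was well above background at 62.4% to 99.9% of probes, depending on the array. Bound signal was weaker, at 1.54 to 5.59 times background, and was well above it at 59.3% to 99% of probes. The number of arrays also limits the precision. Groups follow the labels.

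The 4 groups of tissue, embryos and ES cells were fitted with limma 3.58.1 in R 4.3.3 (lmFit and eBayes, two-sided, Benjamini-Hochberg over all islands), and the 8 adult tissues with its F-test; the limma step was also tested on simulated data. Scoring and plots were done in Python 3.11.15 (scipy 1.17.1, pandas 2.3.3, numpy 2.4.6). The members and lists were chosen with earlier results of these data known. Named are all members, up to 2 genes per list and comparison with the largest difference past the threshold, and islands among the 5 most correlated with the member island of widest range. Alternatives changed the standardisation, background correction (normexp, offset 50, run on median signals because not all files hold means), source table, dim probes, island summary, probe number (5), gap (250 bases), batch terms, reference, threshold and single arrays. Probes on both grids, scan day, software version and grid as terms, adult arrays of one grid, and leaving out each teratoma were chosen after seeing the data.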

Additional observations from a re-analysis of the deposited data

Results flagged for a closer look

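One member island had differences of opposite sign in the 2 pancreatic lines that were both beyond the spread between arrays of a tissue (Cdkn1b island 1 also differed in sign, at 0.0588 in Min6, within that spread, and -0.45 in aTC). At Cdh1, Min6 minus sorted beta cells was -0.243 and aTC minus sorted beta cells was 1.09, and the SD of a difference between arrays of 1 tissue at that island is 0.214, so the Min6 value is barely beyond it. With the pancreas arrays as reference Min6 was at -0.0167 and aTC at 1.32, so the opposite direction of Min6 rests on the beta cell array. With 1 array each, and with the genes chosen with this comparison in view, the difference between the lines was not tested and nothing is read from it. There were 24 sets of 5 arrays (12 islands, embryos and differentiated ES cells). In none of them was the highest or lowest array far enough from the others to be singled out. Chance alone would do so in about 1 of 20 such sets. The largest gap, 0.709 of the range of its set, was at Rb1 for endoderm replicate 2. The sets join different embryo days or different protocols, so nothing is read from this.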

How the results depend on the processing

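Tested values of single islands were compared by their side of the threshold and untested ones by whether they moved over 1 SD; a change of sign counted as reversed only where a value was past the threshold, or over 0.75 for the pancreatic lines, so values not past it may change sign. By that rule 1421 were the same, 76 weaker, 6 stronger, 51 moved and 1 reversed: Gadd45b in embryos, at 0.0524 with normexp background correction. Island counts that moved by over 1.5 times were as follows, and the cause was not tested except that the deposited table (5917 islands), well measured probes alone (8747) and at least 5 probes (8935) hold fewer islands. Differentiated ES cells against adult tissue (3156): normexp 1725, deposited Z-scores 1320, well measured probes 1997, at least 5 probes 1873; single arrays left out 2473 to 3377. Embryos (1174): normexp 105, deposited Z-scores 470, well measured probes 754, slide as block 603, scan day as block 463, software version 7; left out 689 to 1052. Undifferentiated ES cells (313): median and MAD 0, log2 ratio 0, normexp 6, deposited Z-scores, whose J1 column is in doubt, 1564, at least 5 probes 182, scan day 129, software version 82; left out 0 to 1151. Differentiated against undifferentiated (748): median and MAD 225, log2 ratio 228, normexp 80, deposited Z-scores 1343, at least 5 probes 435; left out 443 to 1370. Adult tissues (11): median and MAD 1, normexp 1, at least 5 probes 7, grid 322; left out 2 to 14. With the replicate block this count was 8, with the slide as block also 8, and no member call changed; deviations of same-numbered arrays correlated from -0.253 to 0.629 over 28 pairs of tissues (median 0.106), so the numbers were not used as pairs. Min6 (1430 higher, 948 lower) and aTC (1879, 1236) against beta cells: threshold of 1, Min6 952 and 471, aTC lower 576; log2 ratio, which is on a wider scale, 3196, 2001, 3904 and 3224; deposited Z-scores 669, 289, 986 and 425; well measured probes, lower 280 and 370; at least 5 probes, lower 400 and 591. Teratoma values outside the adult range (1 of 24): log2 ratio 2, deposited Z-scores 0, well measured probes 0, island median 5; left out 0 to 1. Other alternatives kept these counts within 1.5 times.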

Other observations

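The list genes were also read in the comparisons that were in view when the members were chosen, and nothing is read from their counts. Against sorted beta cells a difference over 0.75 was counted, with 1 array each and no test. Of all islands 10.5% were higher and 6.96% lower in Min6, and 13.8% higher and 9.07% lower in aTC. The Rassf family and Hippo kinases had 4 of 10 islands higher in Min6 and 2 of 10 in aTC, and 0 lower in either. Rassf5 was at -0.256 in beta cells, 1.23 in Min6 and 1.23 in aTC. Rassf2 was at -0.0331 in beta cells and 1.36 in Min6. Yap1, the effector that Hippo kinases restrain, was at -0.388 in beta cells and 1.4 in aTC. Cadherins and catenins had 3 of 22 islands higher and 2 lower in Min6, and 6 higher and 0 lower in aTC. In aTC, Cdh8 was at 1.71 against -0.281 in beta cells and Cdh4 at 1.92 against 0.222. In Min6, Ctnnd2 was at 2.27 against 0.264 and Cdh3 at 1.64 against -0.203. Other tumour suppressors had 6 of 28 islands higher in Min6 and 5 of 28 in aTC, and 0 lower in either. An island of Wt1 with 14 probes was at 1.32 in Min6 and 1.21 in aTC against -0.392 in beta cells, Hic1 at 2.26 in Min6 against 0.667, and Runx3 at 1.89 in aTC against 0.302.

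In the cell cycle lists, other Cdk inhibitors and pocket proteins had a median difference of -0.528 in Min6 and -0.407 in aTC, beside -0.153 and -0.212 for all islands. They had 1 of 6 islands higher in Min6, Cdkn1c at 2.04 against 1.25 in beta cells, and 1 of 6 lower in aTC, Cdkn2c (p18, an INK4 inhibitor) at -0.436 against 0.427. Cyclins, Cdks and E2F factors had 1 of 21 higher in Min6, an island of Ccnd2 at 1.65 against -0.174. In aTC they had 2 higher and 1 lower, the lower one being Ccne2 at -0.602 against 0.221 and one of the higher another island of Ccnd2 at 0.349 against -0.981. The p53 arm had 1 of 11 higher in each line, Gadd45b at 1.65 in Min6 and 1.91 in aTC against 0.866. The beta-catenin destruction complex had 0 of 9 past 0.75 in either direction in both lines.

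Between differentiated ES cells and adult tissue the counts are of islands at a limma adjusted p under 0.05, which 14.4% of all islands reached as higher and 8.74% as lower. Other tumour suppressors had 4 of 28 islands higher and 1 lower, with another island of Wt1, of 4 probes, at 1.16 against -0.258 and Runx3 at 1.01 against 0.12. Other Cdk inhibitors and pocket proteins had 0 of 6 higher and 1 lower, Cdkn1c at 0.852 against 2.22. Cyclins, Cdks and E2F factors had 1 of 21 higher, E2f6 at 0.502 against 0.14, and 2 lower, among them E2f1 at -1.27 against -0.804. The p53 arm had 1 of 11 higher, Trp73 at 0.0388 against -0.414, and 1 lower, Gadd45a at -1.04 against -0.748. Cadherins and catenins had 2 of 22 higher, among them Cdh22 at 0.607 against -0.258, and 4 lower, among them Cdh5 at 2.69 against 3.44. The beta-catenin destruction complex had 0 of 9 higher and 2 lower, Apc2 at 0.197 against 0.804 and Axin1 at -0.39 against -0.174, and the Rassf family and Hippo kinases had 0 of 10 in either direction. Between differentiated and undifferentiated ES cells, where 5.49% of all islands were called, 1 island each passed for other tumour suppressors (Wt1, the island of 4 probes, at 1.16 against -0.438, adjusted p 0.00354), for cadherins (Cdh15, at 2.11 against 3.24, adjusted p 0.0286) and for other Cdk inhibitors (Cdkn2c, at -0.185 against 0.232, adjusted p 0.025). Wt1 passed under 17 of 18 alternatives (adjusted p up to 0.257), Cdh15 under 9 of 18 (up to 0.264) and Cdkn2c under 11 of 21 (up to 0.907). Without J1 the adjusted p was 0.0396 for Wt1, 0.109 for Cdh15 and 0.0786 for Cdkn2c.

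Among the islands of other genes whose scores followed Cdkn2a island 1 most closely over the 34 arrays were Otp (r = 0.875), Nhlh2 (0.839), Dmrta2 (0.836) and Dlx2 (0.822). Arrays of shared slides and scan days enter these values, and the pancreatic lines are high in all of them: Otp was at 1.13 in Min6 and 1.28 in aTC against -0.318 in beta cells, and Nhlh2 at 1.85 and 1.14 against -0.332. The retinoic acid cells were also above the highest adult array at each of these 4, from 0.324 at Dlx2 to 1.34 at Dmrta2. Their array entered the choice of these islands, so nothing is read from it. Mesoderm and endoderm replicate 2 were not above the adult range at Dmrta2 (0.202 and 0.261) or Dlx2 (-0.597 and -0.476). At Nhlh2 both were above it, and at Otp mesoderm was (0.101) and endoderm replicate 2 was not (-0.00502).

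The deposited column of the J1 array matched no scanner file. Its correlations with the scanner values of the 34 arrays ran from 0.0614 to 0.131. The scanner values of the J1 array correlated with the deposited column of pancreas replicate 2 at 0.921, above those of the EB5 (0.731) and TT2 (0.677) columns. Pancreas replicate 2's own scanner values correlated with that column at 0.93. Which sample the J1 scanner file holds was not determined, and it is kept here under its label.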
